A study of Mus musculus with 19 samples.

Results

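The guanylate-binding proteins (GBPs) are large GTPases that cells make when interferons reach them, and the type II interferon, interferon gamma, is their best known inducer. They assemble on vacuoles that hold parasites or bacteria and on bacteria in the cytosol, help to break these open, and feed inflammasomes that sense what is released. In tumor tissue their RNA is commonly read as a trace of interferon signaling, in malignant cells as well as in immune and stromal cells. RNA of 9 GBP genes, Gbp2, Gbp3, Gbp4, Gbp5, Gbp6, Gbp7, Gbp8, Gbp9 and Gbp10, was followed across 19 primary mouse sarcomas. The genes were chosen by symbol, and all 9 were found among the 48795 gene identifiers measured.

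Each tumor was started in the gastrocnemius of a mouse aged 6 to 10 weeks with an adenovirus that carries Cas9 and a guide against Trp53 (Adeno-sgp53-Cas9), delivered for transient expression, together with 300 µg of the carcinogen 3-methylcholanthrene (MCA) in sesame oil. The host was Rag2-/-, which cannot form mature T and B cells, in 11 cases, and a Rag2+/- mouse, which has both, in 8 cases. No mouse was treated, and tumors were taken at 70 to 150 mm3. One library was made per tumor, so the spread between libraries includes that between mice. NK cells and myeloid cells remain in both hosts. The study's figure on this genotype used 15 of the tumors, and the Rag2-/- tumors S41, S46 and S51 and the Rag2+/- tumor S56 are outside it.

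Values are log2 of upper-quartile normalized FPKM after 0.1 was added, with a floor of -3.32 for a gene without fragments. Depth was estimated from the spacing of low values at 24.9 to 33.8 M fragments on genes in 18 tumors and 5.17 M in the Rag2-/- tumor S41. The T cell gene Cd3e was at the floor in all 11 Rag2-/- tumors and between -0.61 and 2.90 in Rag2+/- tumors. It was the only 1 of 8 T cell markers at the floor in all of the Rag2-/- tumors. The mean of the 8 was -2.64 to -1.61 in Rag2-/- and 0.16 to 2.59 in Rag2+/- tumors. Rag2 itself went against the labels. Its log2 value was higher by 0.97 in the tumors labelled Rag2-/- (two-sided exact permutation test, p = 0.0123), at an estimated 7 to 100 fragments, and the value covers the whole gene without showing which part was transcribed. Groups below are named by their labels. One Rag2-/- tumor, S51, stood apart from the rest: within its group it had the highest value for 28.3% of the 12826 genes tested and the lowest for 30.9%. Results that rest on it are given with and without it.

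The members lie in 2 clusters of the mouse genome (GRCm38, gene models of GENCODE vM21), all as protein-coding genes. On the plus strand of chromosome 3 follow Gbp5 (ENSMUSG00000105504, chr3:142493978-142522344), Gbp7 (ENSMUSG00000040253, chr3:142530342-142550149), Gbp3 (ENSMUSG00000028268, chr3:142560026-142573209) and Gbp2 (ENSMUSG00000028270, chr3:142620602-142638008). The minus strand of chromosome 5 carries Gbp8 (ENSMUSG00000034438, chr5:105014150-105139540), Gbp9 (ENSMUSG00000029298, chr5:105077630-105139539), Gbp4 (ENSMUSG00000079363, chr5:105115767-105139586), Gbp10 (ENSMUSG00000105096, chr5:105215699-105239533) and Gbp6 (ENSMUSG00000104713, chr5:105270702-105293698). Gbp4, Gbp8 and Gbp9 start together, and their models share up to 61 exonic bases. Gbp6 shares 1726 and Gbp10 shares 1792 exonic bases with the gene model Gm43302, and Gbp7 shares 637 with Gm43802. The genes are also close in sequence to each other, so fragments can be assigned to the wrong copy, and values of the chromosome 5 members in particular are uncertain to that extent.

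Promoter windows from RefSeq (GRCm38.p6, from 250 bases before to 50 after a gene start) were available for 4 members, all on chromosome 3. They are shown because each holds the same spaced repeat, TTTC and TTTC with any 2 bases between them, in the orientation of the gene, the core of the interferon-stimulated response element. Each run below is on the plus strand, 5′ to 3′, with the repeat in capitals.
Gbp5, chr3:142496689-142496788: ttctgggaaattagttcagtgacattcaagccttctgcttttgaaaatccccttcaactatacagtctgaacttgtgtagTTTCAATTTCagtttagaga
Gbp7, chr3:142530203-142530302: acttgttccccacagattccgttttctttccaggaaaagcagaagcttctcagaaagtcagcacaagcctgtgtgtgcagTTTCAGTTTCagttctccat
Gbp3, chr3:142559919-142560018: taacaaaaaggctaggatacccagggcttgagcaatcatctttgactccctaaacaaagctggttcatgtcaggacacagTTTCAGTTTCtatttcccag
Gbp2, chr3:142620524-142620623: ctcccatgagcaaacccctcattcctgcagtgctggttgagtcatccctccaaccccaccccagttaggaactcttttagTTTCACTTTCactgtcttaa
The repeat began 45 bases before the RefSeq start in Gbp3, 53 in Gbp7, 59 in Gbp2 and 165 in Gbp5. On either strand (the reverse complement is GAAA, 2 bases, GAAA) it is present in 3.44% of all 32851 windows of 300 bases. The Gbp3 window holds a second copy that overlaps the first, and a second Gbp3 window, for another start, holds none. The gamma-activated sequence TTCNNNGAA, its own reverse complement, occurs in 8.3% of windows and 2 times each in those of Gbp5 and Gbp7, without overlap with the repeat, and was not found in those of Gbp2 and Gbp3. A match is a description of the letters and no measure of binding.

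The GBPs are not one block of equal RNA. FPKM are per length, so levels of different members can be set side by side. Averaged over the 19 tumors, the order of log2 levels was Gbp2 at 5.91, Gbp3 at 5.31, Gbp6 at 4.70, Gbp7 at 4.27, Gbp5 at 3.49, Gbp9 at 3.44, Gbp4 at 2.81, Gbp10 at 1.33 and Gbp8 at 0.54. Of the 8 pairs of neighbors in this order, 6 differed within tumors (two-sided sign-flip permutation test, adjusted p from 8e-05 to 0.0116 over the 8 pairs). The largest count of tumors in one direction was for Gbp7 over Gbp5, higher in 19 of 19 by 0.77 ± 0.35 (SD of the log2 difference, n = 19). Gbp5 and Gbp9 did not differ beyond their spread, at 0.05 ± 0.71 (adjusted permutation p = 0.852, n = 19), and they changed places without S51. Gbp10 exceeded Gbp8 by 0.79 ± 1.7 in 12 of 19 tumors (adjusted permutation p = 0.0553, n = 19).

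**Figure D1:**
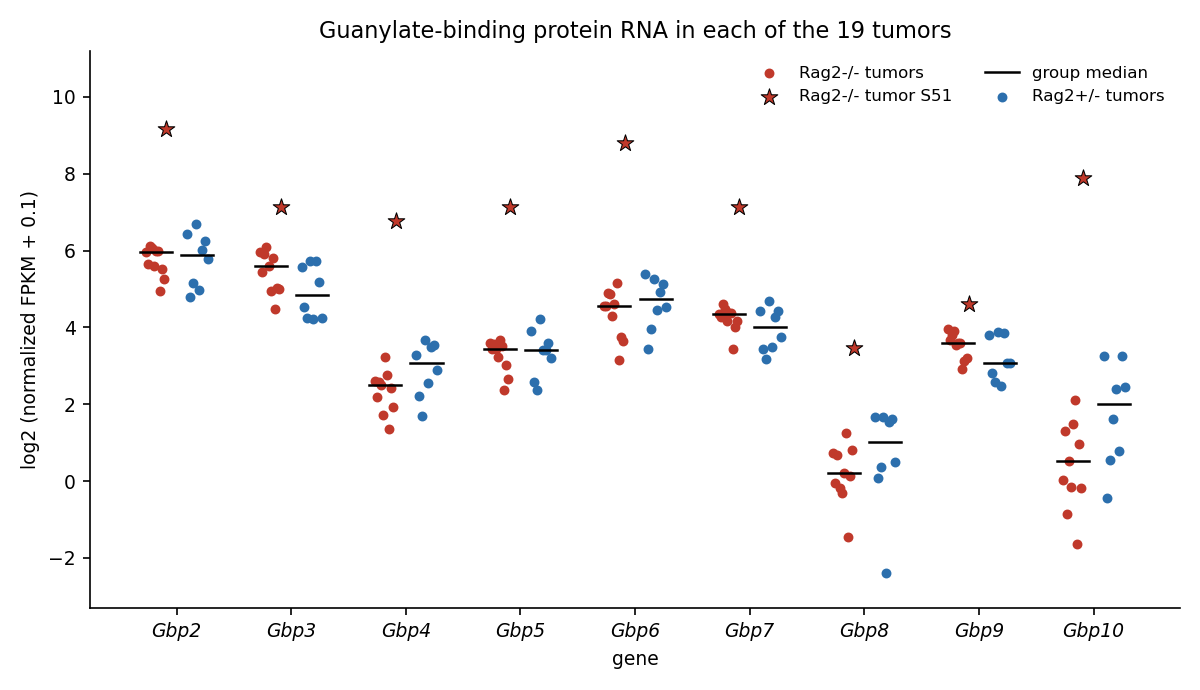
Log2 values (vertical axis, log2 of normalized FPKM + 0.1) of the 9 members in each tumor, with Rag2-/- tumors in red, Rag2+/- tumors in blue, group medians as lines and the Rag2-/- tumor S51 as a star. S51 is the highest point for every member, at 9.17 for Gbp2 and 7.88 for Gbp10, and the remaining points of both genotypes overlap.

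Gbp2 and Gbp3 had the largest median shares of GBP RNA in the 18 tumors other than S51, and together held more than 50% of it in 17 of them and 45.5% in S56. Gbp2 held a median of 31.7% (28.5% to 38.8%) of the summed normalized FPKM of the 9 genes, Gbp3 25.2% (13.3% to 30.8%), Gbp6 13.8% (9.96% to 20%) and Gbp7 10.1% (8.71% to 14.5%). Gbp9 held 6.61%, Gbp5 5.87%, Gbp4 3.6%, Gbp10 1.24% and Gbp8 0.843% by median. The shares of the members of lowest RNA varied most relative to their size, from 0.21% to 4.69% for Gbp10, from 0.081% to 1.39% for Gbp8 and from 2.01% to 5.45% for Gbp4.

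**Figure D2:**
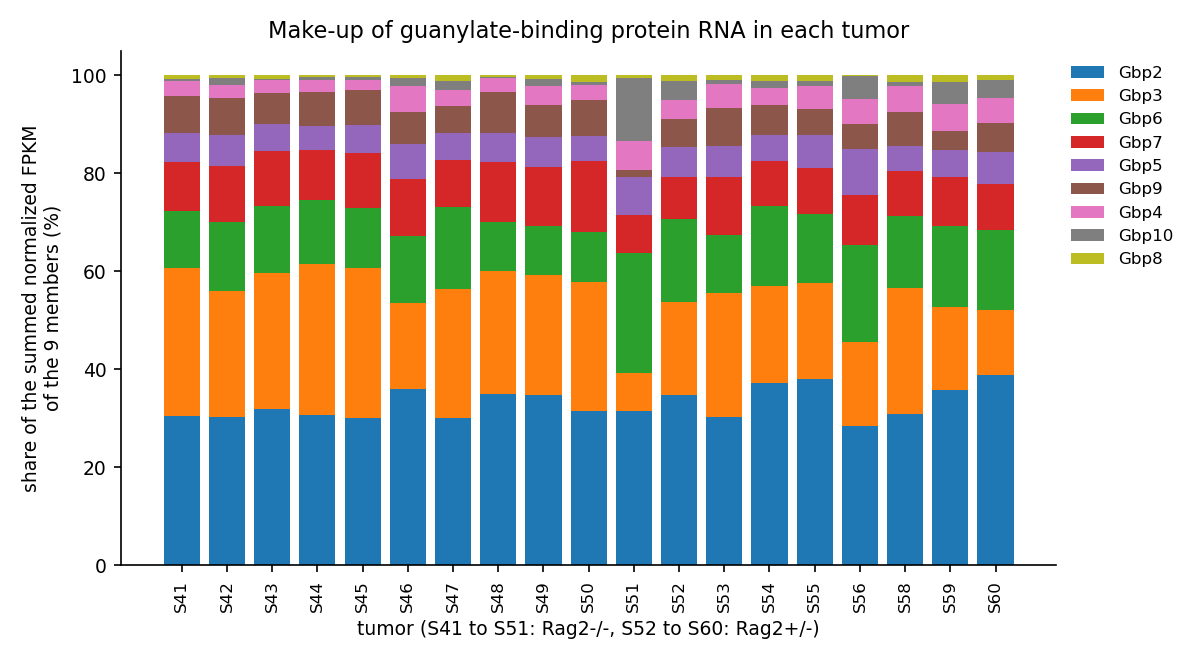
Share of the summed normalized FPKM of the 9 members (vertical axis, %) held by each gene in each tumor, with Rag2-/- tumors S41 to S51 on the left and Rag2+/- tumors S52 to S60 on the right. In S51 the Gbp3 share is 7.72% and the Gbp10 share 12.9%, against 13.3% to 30.8% and 0.21% to 4.69% in the other 18 tumors.

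The first question was whether GBP RNA depends on the lymphocytes that Rag2-/- mice lack. No member was called different between genotypes (0 of 9 at an adjusted p under 0.05, limma over 12826 genes, with 0 of 9 at an unadjusted p under 0.05), against 0.0312% of all genes called and 16.3% of genes at an unadjusted p under 0.05. The genes called were 4 (Igkc, Igha, Tnfrsf18 and Cd2), all lower in Rag2-/- tumors. Without S51 it was again 0 of 9, against 0.0545% of genes, and 1 member, Gbp10, had an unadjusted p under 0.05, against 32.4% of genes. Differences below are log2 values of Rag2-/- minus Rag2+/- tumors with their SE, and adjusted p-values come from limma with Benjamini-Hochberg adjustment.

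Gbp2, which is recruited to Toxoplasma and Salmonella vacuoles and is needed to contain them, ranged from 4.94 over a median of 5.80 to 6.11 in the 10 Rag2-/- tumors other than S51 and was 9.17 in S51. In Rag2+/- tumors it ranged from 4.79 over 5.89 to 6.70. Apart from S51 the Rag2-/- values lay inside the Rag2+/- range, and the difference was 0.27 ± 0.42 (adjusted p = 0.704) with S51 and -0.05 ± 0.25 (adjusted p = 0.903) without it.

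Gbp5, which promotes inflammasome assembly, ran from 2.38 over 3.44 to 3.67 in these 10 Rag2-/- tumors, with 7.14 in S51, and from 2.37 over 3.40 to 4.22 in Rag2+/- tumors. The groups overlapped almost completely, with a difference of 0.27 ± 0.45 (adjusted p = 0.718) that became -0.08 ± 0.24 without S51. Gbp6 is among the members that restrict mycobacteria and Listeria in macrophages. It lay between 3.15 and 5.16 in the 10 Rag2-/- tumors (median 4.55), at 8.81 in S51, and between 3.45 and 5.38 in Rag2+/- tumors (median 4.73). Its difference of 0.11 ± 0.53 (adjusted p = 0.905) turned to -0.29 ± 0.29 without S51, and the groups overlapped in both cases. With the mean of skeletal muscle genes as a covariate in limma the differences of Gbp2, Gbp5 and Gbp6 were 0.73, 0.83 and 0.81, and without S51 0.08, 0.12 and 0.03, and none was called.

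Gbp3, Gbp7 and Gbp9 had the higher mean in Rag2-/- tumors with and without S51, and by less, at 0.39, 0.17 and 0.17, in the 15 tumors of the study's figure. Gbp3 spanned 4.48 to 6.08 (median 5.52) in the 10 Rag2-/- tumors, 7.14 in S51, and 4.23 to 5.74 (median 4.85) in Rag2+/- tumors. The Rag2-/- tumors reached higher and the Rag2+/- tumors lower, over a shared middle range, and the difference of 0.65 ± 0.31 had an adjusted p of 0.306 (unadjusted p = 0.0523, limma), and of 0.208 for 0.49 ± 0.27 without S51. Gbp7, known for antibacterial defense through the phagocyte oxidase and autophagy, spanned 3.44 to 4.62 (median 4.31), 7.14 in S51, and 3.17 to 4.69 (median 4.01) in Rag2+/- tumors. Its difference was 0.53 ± 0.35 (adjusted p = 0.394) and 0.27 ± 0.21 without S51, with every Rag2-/- value other than S51 inside the Rag2+/- range. Gbp9 spanned 2.92 to 3.96 (median 3.59), 4.61 in S51, and 2.48 to 3.88 (median 3.07), with a difference of 0.43 ± 0.23 (adjusted p = 0.334) and 0.33 ± 0.21 without S51. For Gbp9, 3 of the 11 Rag2-/- values, S51 among them, exceeded the Rag2+/- range.

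Gbp4, Gbp8 and Gbp10, all from the chromosome 5 cluster, had the lower mean in Rag2-/- tumors. In the 15 tumors of the study's figure, which leave out S51, their differences were -0.79, -0.95 and -1.38 (adjusted p = 0.217, 0.218 and 0.222, limma). Gbp4 ranged from 1.36 over 2.46 to 3.24 in the 10 Rag2-/- tumors, 6.76 in S51, and from 1.69 over 3.08 to 3.67 in Rag2+/- tumors. Its difference was -0.18 ± 0.52 (adjusted p = 0.839), and -0.59 ± 0.28 (adjusted p = 0.158) without S51, still with wide overlap. Gbp8 ranged from -1.46 over 0.16 to 1.26, 3.47 in S51, and from -2.40 over 1.01 to 1.68 in Rag2+/- tumors, with a difference of -0.15 ± 0.57 (adjusted p = 0.885) and -0.45 ± 0.49 without S51. This is the member of lowest RNA, and its lowest value, in the Rag2+/- tumor S56, rests on an estimated 4 fragments. With the mean of skeletal muscle genes as a covariate in limma, the sign turned with S51, to 0.40 for Gbp4 and 0.19 for Gbp8, and stayed negative without it, at -0.42 and -0.46.

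Gbp10, like Gbp6 and Gbp7 tied to resistance of macrophages to bacteria, was the most variable member. In the 10 Rag2-/- tumors it ranged from -1.63 over 0.27 to 2.12, in S51 it was 7.88, and in Rag2+/- tumors it ranged from -0.43 over 2.0 to 3.26. Of the 8 Rag2+/- tumors, 4 lay above every Rag2-/- tumor except S51, and the other 4 lay among them. The difference was -0.69 ± 0.92 (adjusted p = 0.651) with S51 and -1.38 ± 0.55 (adjusted p = 0.113, unadjusted p = 0.0218, limma) without it. The 4 Rag2+/- tumors with high Gbp10 were also those with the most skeletal muscle RNA, as described below, and with muscle RNA as a covariate in limma the sign turned, to 1.03 with S51, and the difference was -0.04 without it (adjusted p = 1.0 in both). These 4 tumors and S51 also had low Xist RNA, the transcript of the inactive X chromosome, at -3.32 to -1.83, as did S46, S49, S50 and S58, whose muscle lists were 7.03 to 8.75. With Xist as the covariate the Gbp10 difference was -0.10, and the parts of muscle and Xist were not separated by a test. Fewer cells of a type and less RNA per cell cannot be told apart in these bulk values.

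**Figure D3:**
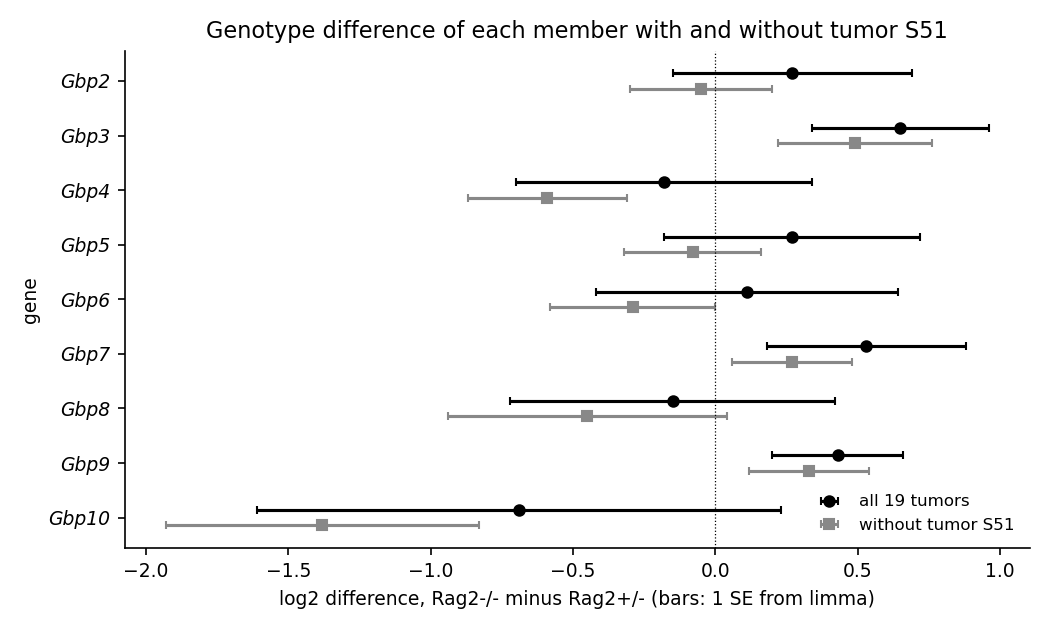
Difference in log2 value between Rag2-/- and Rag2+/- tumors (horizontal axis, bars of 1 SE from limma) for each member in all 19 tumors (black circles) and without tumor S51 (grey squares). Without S51 each estimate is lower, from 0.49 for Gbp3 to -1.38 for Gbp10, and none passed the adjusted threshold in either fit.

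The other GBP genes, 2 in number, were too low for the limma fit. Gbp2b, on chromosome 3, was between -3.32 and -0.71 in the 10 Rag2-/- tumors (median -2.42), 3.92 in S51, and between -2.65 and 2.19 in Rag2+/- tumors (median -0.33). Without S51 the Rag2-/- mean was lower by 2.23 log2 units (two-sided exact permutation test, p = 0.0019, not adjusted for the genes examined). The highest Rag2+/- values, in S52 (1.70), S59 (2.19) and S60 (1.17), came from tumors rich in skeletal muscle RNA, with list means of 11.84 to 12.05 against 4.18 to 9.78 in those 10 Rag2-/- tumors, although S56, the tumor with the most of it (13.02), had a Gbp2b of -0.58. The part of muscle RNA in the difference was not tested. With S51 the difference was -1.66 (exact permutation p = 0.0756). Gbp11, a polymorphic pseudogene on chromosome 5, differed by 0.74 (exact permutation p = 0.298) with S51 and by 0.35 (exact permutation p = 0.499) without it.

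The largest differences in GBP RNA were within the Rag2-/- group. S51 had the highest value of all 19 tumors for 9 of 9 members, where 8.2% of the genes tested were highest in S51. Summed normalized FPKM of the members was 1830 in S51, 87.9 to 219 (median 172) in the other 10 Rag2-/- tumors and 91.1 to 273 (median 174) in Rag2+/- tumors. S51 thus held 10.6 times the median of its group, while the ranges of the other tumors overlapped between genotypes, with the Rag2+/- tumors S52 (246) and S55 (273) above every Rag2-/- tumor except S51. The next sentences compare 1 tumor with the median of the 10 others and carry no test.

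The excess of S51 was unequal across members. Gbp10 exceeded the median of the other Rag2-/- tumors by 7.60 log2 units (235 against 1.12 normalized FPKM), the most of any member. Gbp4 exceeded it by 4.30, Gbp6 by 4.26, Gbp5 by 3.70, Gbp2 by 3.37, Gbp8 by 3.31 and Gbp7 by 2.83. Gbp3, at 1.62, and Gbp9, at 1.02, had the smallest excess. In step with this, the Gbp3 share of GBP RNA was 7.72% in S51, the Gbp7 share 7.73% and the Gbp9 share 1.33%, each below all other tumors, while Gbp10 at 12.9%, Gbp6 at 24.6% and Gbp4 at 5.91% were above all others.

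Genes that answer to interferon gamma were high in S51 along with the members. The immunity-related GTPases, the other family of interferon-induced GTPases that act on pathogen vacuoles, exceeded the median of the other Rag2-/- tumors by a median of 3.82 over 7 genes (2.80 to 4.79), led by Igtp at 9.92 in S51 against a median of 5.12. Over 10 tested interferon gamma targets, among them Cxcl9 and Cd274 (the ligand PD-L1), the median excess was 1.97 (1.55 to 4.94). Over 14 type I interferon-stimulated genes, such as Isg15 and Ifit1, it was 0.94 (-0.06 to 1.87), and over all genes tested -0.05. The type I genes were thus high in S51 too, by less. S51 was the highest of the 19 tumors for 11 of these 14 genes, 9 of the 10 targets and all 7 GTPases, against 8.2% of genes tested. Its type I list mean was 6.20, against 4.28 to 5.71 in the other Rag2-/- tumors and 3.32 to 5.38 in Rag2+/- tumors. The median over the 9 members was 3.37, nearest to that of the immunity-related GTPases.

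**Figure D4:**
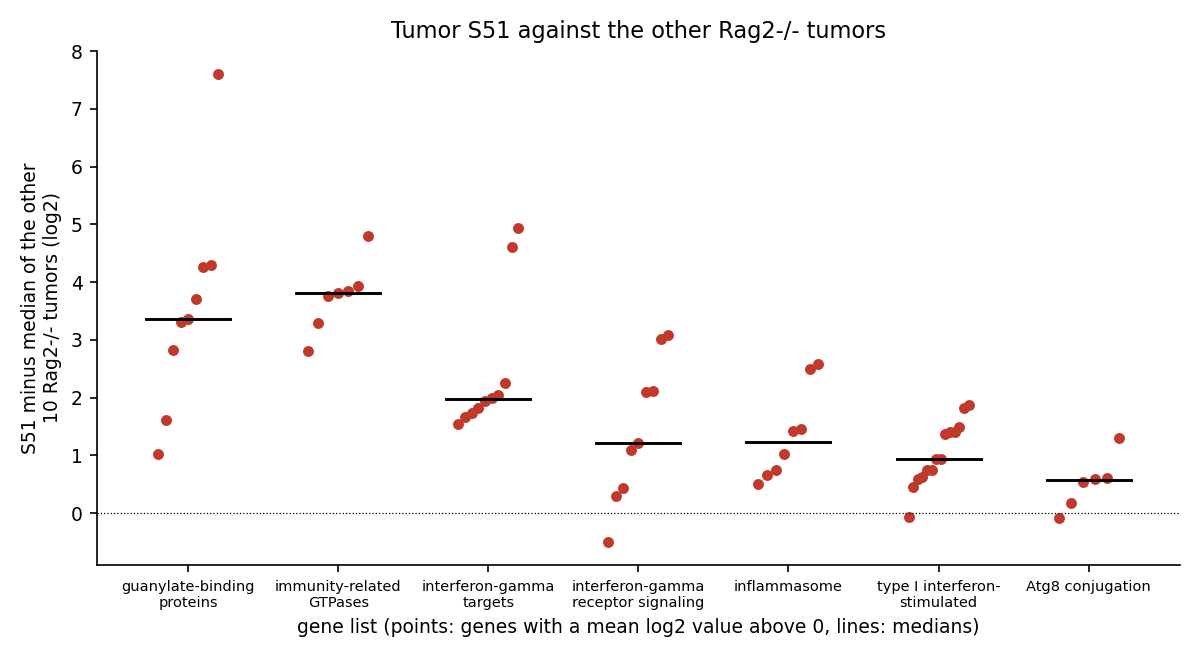
Log2 value of each gene in the Rag2-/- tumor S51 minus the median of the other 10 Rag2-/- tumors (vertical axis), by gene list, with a line at each list's median. The medians are 3.37 for the members, 3.82 for the immunity-related GTPases, 1.97 for interferon gamma targets and 0.94 for type I interferon-stimulated genes.

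Along the pathway upstream of the GBPs, Ifng, the ligand gene, was 2.43 in S51, the highest of the 19 tumors, at an estimated 97 fragments. It was -3.32 to -0.50 in the other Rag2-/- tumors (median -2.21) and -3.32 to -0.59 in Rag2+/- tumors (median -1.16), at no more than 20 fragments in Rag2+/- tumors. Of the receptor chains, Ifngr1, at 5.42 in S51, ranked 15 of 19, and Ifngr2, at 5.24, ranked 4 and was the highest of the Rag2-/- tumors, 0.43 above the median of the others. Jak1, a kinase of the receptor, ranked 7, whereas its partner Jak2 ranked 1, 1.09 above the median of the other Rag2-/- tumors. Irf1, a transcription factor that interferon gamma induces and that drives GBP genes, was 7.82 in S51, 3.01 above that median.

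Markers of other cells in S51 are given without a test of their part in its GBP values. Of 8 T cell markers, 6 were at the floor in S51 (Cd3d, Cd3e, Cd3g, Cd5, Cd8a and Trac), and the list mean was -2.40, inside the -2.64 to -1.61 of the other Rag2-/- tumors and below the 0.16 to 2.59 of Rag2+/- tumors. The NK cell list averaged 2.12 in S51, the second highest of 19, against 0.36 to 2.24 in the other Rag2-/- tumors. Of its 8 genes, 3 (Ncr1, Klrk1 and Gzma) were at their highest of all tumors, and over the 6 genes tested the excess over the median of the other Rag2-/- tumors ran from -0.99 to 2.07, with a median of 0.57. The neutrophil list, at 3.23, also ranked 2 of 19, against 1.31 to 3.85 in the other Rag2-/- tumors and -0.08 to 2.55 in Rag2+/- tumors. Over its 4 tested genes the excess was 1.31 to 2.13 (median 1.71), Csf3r and Cxcr2 were at their highest of all tumors, and Ly6g was at the floor. The macrophage list, at 5.76, ranked 9. Skeletal muscle genes averaged 11.65 against 4.18 to 9.78 in the other Rag2-/- tumors, and the mesenchymal list, at 6.63, was the lowest of the 19 tumors, against 8.53 to 9.26.

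At the other end, S48 had the lowest value among the 11 Rag2-/- tumors for 9 of 9 members, where 12.9% of the genes tested were lowest in it. Gbp2 was 4.94, Gbp6 3.15 and Gbp10 -1.63. Its immunity-related GTPases, at a mean of 3.67, its NK cell list, at 0.36, and its muscle list, at 4.18, were also the lowest of the Rag2-/- tumors. Among Rag2+/- tumors S55 was highest for 6 of 9 members, against 12% of genes. The lowest value was in S53 for 3 members, against 17.4% of genes, in S54 for 3, against 5.08%, and in S56 for 3, against 25.1%, so low values were spread over 3 of these tumors. Of the 36 pairs of members, 32 were positively correlated over the 19 tumors (Spearman's rho, adjusted permutation p under 0.05 over 36 pairs, n = 19), and 26 without S51. The lowest rho among the 32 was 0.46, which 18.2% of all pairs of tested genes reached, and among the 26 it was 0.55, which 11% reached. Within genotypes the rho of a pair ran from 0.00 to 0.98 (median 0.83) in Rag2+/- tumors and from 0.10 to 0.99 (median 0.65) in the 10 Rag2-/- tumors other than S51.

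By rho the closest pair spanned the 2 clusters: Gbp2 and Gbp6 had a rho of 0.95 (Pearson's r = 0.96), and 0.94 (r = 0.88) without S51. By r it was Gbp5 and Gbp6 over the 19 tumors (0.97) and Gbp3 and Gbp9 without S51 (0.92). Gbp2 and Gbp7 had a rho of 0.94 and Gbp3 and Gbp9 one of 0.91 (r = 0.94), 0.90 without S51. The weakest were Gbp3 with Gbp10, at a rho of 0.03 (-0.14 without S51), and Gbp9 with Gbp10, at 0.15 (0.01 without S51), although Gbp9 and Gbp10 lie in the same cluster. The median rho was 0.85 over 6 pairs on chromosome 3, 0.68 over 10 pairs on chromosome 5 and 0.74 over 20 pairs with one gene on each. The ranges of the kinds overlapped. The pairs share libraries, and Gbp4, Gbp8 and Gbp9 share exonic bases.

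Each member was then compared over the tumors with Ifng and with the mean log2 value of 5 lists: type I interferon-stimulated genes and the markers of T cells, NK cells, macrophages and skeletal muscle fibers. Of these 54 relations, 13 passed an adjusted permutation p of 0.05 by Spearman's rho over the 19 tumors, and 10 did without S51. The 10 include 2 that did not pass with S51, both with the T cell list, which differs by genotype. These were Gbp4 (rho = 0.70) and Gbp10 (0.62), with adjusted permutation p of 0.0115 and 0.0411 (n = 18), where 2.36% of genes reached 0.62. List means and members come from the same libraries.

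Gbp3 and Gbp9 had the highest rho with the type I interferon list and the NK cell list. For Gbp3 and the type I list, rho was 0.93 and r was 0.90 (adjusted permutation p = 0.00027 and 0.000216, n = 19), r was 0.87 once the 2 tumors at the extremes of the list, S51 and S56, were left out, and rho was 0.88 in Rag2+/- tumors and 0.96 in the 10 Rag2-/- tumors other than S51. With the NK cell list rho was 0.92 and r was 0.83 (adjusted permutation p = 0.00027 and 0.000216, n = 19), with r at 0.85 without S56 and S60, and rho was 0.88 and 0.89 within genotypes. Gbp9 gave a rho of 0.86 with the type I list (r = 0.86, 0.77 without S51 and S56) and 0.82 with the NK cell list (r = 0.82, 0.81 without S56 and S60), with adjusted permutation p of 0.00036 and 0.000675 for rho. Gbp7 had a rho of 0.68 (r = 0.68) and 0.75 (r = 0.60) with these lists, with adjusted permutation p of 0.0151 and 0.00225 for rho, although its r with the NK cell list did not pass (adjusted permutation p = 0.0613, n = 19). All 6 of these held without S51 at an adjusted permutation p under 0.05 for rho, where 5.78% of all genes reached the lowest passing rho with the type I list (0.62) and 1.3% that with the NK cell list (0.72). In the 15 tumors of the study's figure all but Gbp7 with the type I list held (rho = 0.66, adjusted permutation p = 0.057). That rho was 0.50 in Rag2+/- tumors (exact permutation p = 0.216, n = 8) and 0.70 in the 10 Rag2-/- tumors other than S51 (permutation p = 0.0304). The type I list and NK cell list were themselves both higher in Rag2-/- tumors on average, at means of 5.19 against 4.26 and 1.55 against 0.43. A rho of at least 0.68 with the type I list, the lowest of the 3 members that passed, was reached by 1.61% of all genes tested. With the NK cell list, Gbp2 (rho = 0.64), Gbp5 (0.62) and Gbp6 (0.58) passed as well (adjusted permutation p = 0.0232, 0.0309 and 0.0491, n = 19), though not without S51, and 2.65% of genes reached 0.58. Gbp5 also passed with the macrophage list, at a rho of 0.61 (adjusted permutation p = 0.0343, n = 19) and of 0.65 without S51 (0.0296), where 3.24% of genes reached 0.61. This call was lost after centring within genotype (rho = 0.44, adjusted permutation p = 0.0991, n = 19) and in the 15 tumors of the study's figure (rho = 0.61, adjusted permutation p = 0.0768). By r, Gbp2, Gbp5 and Gbp6 with the NK cell list and Gbp5 with the macrophage list did not pass, at 0.55, 0.42, 0.42 and 0.13 (adjusted permutation p from 0.0758 to 0.576, n = 19).

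Gbp10 differed from these. With the type I list its rho was -0.16 (r = 0.10) and with the NK cell list 0.00 (r = 0.09), while with the skeletal muscle list, which includes Ckm and Acta1, rho was 0.79 and r was 0.76 (adjusted permutation p = 0.000972 and 0.000216, n = 19). A rho of 0.79 or more with the muscle list was reached by 6.78% of all genes tested. No other member passed with that list, where rho ran down to -0.18 for Gbp3 and Gbp9. Without S51 the Gbp10 rho was 0.78 and r was 0.87, and with the 2 tumors at the extremes of the list, S48 and S56, left out r was 0.76. Muscle RNA fell into 2 ranges, 14 tumors at 4.18 to 9.78 and 5 at 11.65 to 13.02. Gbp10 was -1.63 to 2.12 in the 14 (rho = 0.56, permutation p = 0.038, r = 0.75, permutation p = 0.00189, not adjusted) and 2.39 to 7.88 in the 5, or 2.39 to 3.26 in the 4 that are Rag2+/-. Within genotypes r was 0.89 in Rag2+/- tumors (exact permutation p = 0.00556, n = 8) and 0.76 in the 10 Rag2-/- tumors other than S51 (permutation p = 0.0103). By rho the values were lower, at 0.71 (exact permutation p = 0.0576, n = 8) and 0.49 (permutation p = 0.154), or 0.62 with S51 (permutation p = 0.0474).

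**Figure D5:**
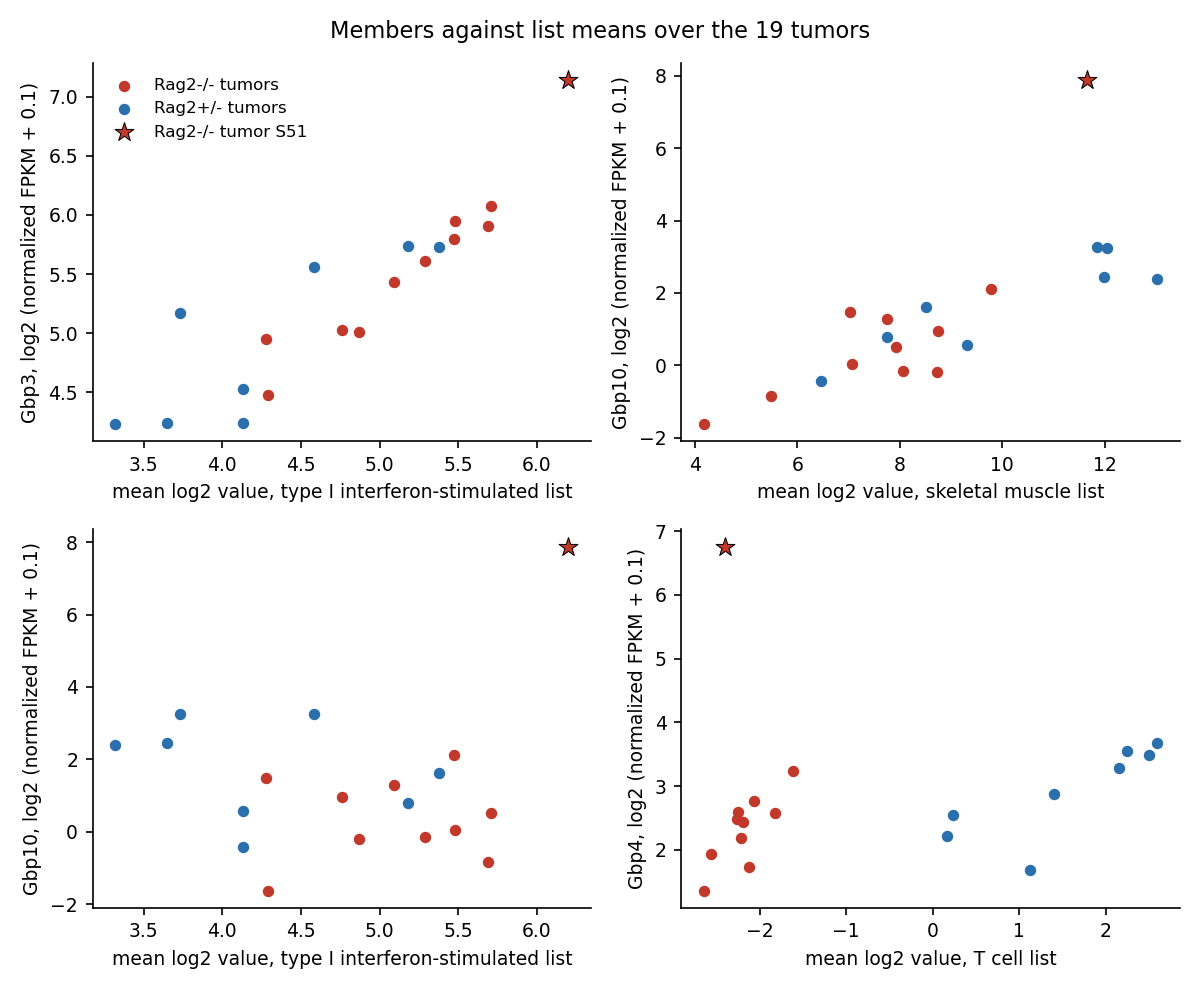
Log2 value of a member (vertical axes) against the mean log2 value of a gene list (horizontal axes) in the 19 tumors, with Rag2-/- tumors in red, Rag2+/- tumors in blue and S51 as a star. Gbp3 climbs with the type I interferon-stimulated list (rho 0.93), Gbp10 climbs with the skeletal muscle list (rho 0.79) and not with the type I list (rho -0.16), and Gbp4 climbs with the T cell list among Rag2+/- tumors (rho 0.90).

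T cell RNA separates the genotypes, so its relation to the members was read within Rag2+/- tumors. There 8 of the 9 members were higher where the T cell list was higher, with rho from 0.79 to 0.90 (unadjusted exact permutation p from 0.00456 to 0.0279, n = 8), where 3.17% of all genes tested had a rho of at least 0.79. Gbp2, Gbp4 and Gbp9 had a rho of 0.90, and Gbp10 had a rho of 0.33 (exact permutation p = 0.428, n = 8). In the same 8 tumors the NK cell list gave a rho of 0.62 to 0.88 for these 8 members, and the macrophage list 0.71 to 0.88, so the lists cannot be told apart as companions of GBP RNA. In the 10 Rag2-/- tumors other than S51, whose hosts cannot form T cells and whose T cell list averages -2.64 to -1.61, r with that list reached an unadjusted permutation p under 0.05 for 5 members, from 0.66 for Gbp7 to 0.81 for Gbp5, where 10.3% of all genes tested reached 0.66. The NK cell list did so there for 6 members, from 0.77 for Gbp7 to 0.91 for Gbp3, where 1.4% of genes reached 0.77. By rho in these 10 tumors, only Gbp4 (0.65) and Gbp5 (0.67) did so with the T cell list (unadjusted permutation p = 0.0493 and 0.0388). With the NK cell list the same 6 members did so by rho, except Gbp5 (0.61, permutation p = 0.0689).

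Ifng RNA was compared with the members last. By Pearson's r, 7 of 9 members passed, with r from 0.68 for Gbp8 to 0.80 for Gbp2 (adjusted permutation p = 0.0117 and 0.00417, n = 19), where 0.92% of all genes tested reached 0.68. By rho 2 did, Gbp2 at 0.57 and Gbp10 at 0.58 (adjusted permutation p = 0.0491 each, n = 19), where 1.78% of all genes tested reached 0.57. Without S51 0 of 9 passed by rho. Without S51 alone, r was 0.16 for Gbp3 to 0.54 for Gbp2 over the 9 members. With S50 left out as well, r was 0.14 to 0.55, lowest for Gbp3 and highest for Gbp8. S50 shared the floor value of Ifng with S41, S48, S53 and S56, so its choice among these was arbitrary. Within Rag2+/- tumors rho was 0.53 to 0.84 for the members other than Gbp10 (0.19), with Gbp9 at 0.84 and Gbp4 at 0.75 (unadjusted exact permutation p = 0.0131 and 0.038, n = 8, where 2.77% of genes reached 0.75), and r was 0.84 for Gbp2 and 0.81 for Gbp8 (unadjusted exact permutation p = 0.0065 and 0.00665, n = 8). The 2 measures named different members. By rho Gbp2 and Gbp8 were at 0.71 (exact permutation p = 0.0595 each). By r Gbp9 was at 0.72 and Gbp4 at 0.64 (exact permutation p = 0.0489 and 0.0874). The share of all genes at these r values was not computed, and Ifng was at the floor in S53 and S56. In the 10 Rag2-/- tumors other than S51 rho was between -0.31 and 0.42. Ifng rested on few fragments in every tumor but S51, which limits what these values can show.

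Of the lists around the GBPs, 0 genes were called between genotypes in the type I interferon, interferon gamma target, interferon gamma signaling, immunity-related GTPase, inflammasome and Atg8 conjugation lists (limma), against 0.0312% of all genes tested. An unadjusted p under 0.05 was reached by 14 of 14, 0 of 10, 1 of 9, 0 of 7, 4 of 8 and 1 of 6 tested genes of these lists in that order, against 16.3% of all genes. Without S51 the counts were 14, 1, 2, 1, 1 and 1, against 32.4%. All 14 type I interferon-stimulated genes had the higher mean in Rag2-/- tumors, with a median difference of 0.91 (0.77 without S51) and an unadjusted limma p under 0.05 for 14 of 14, where 56.2% of all genes had the higher mean and the median over all genes was 0.06. Skeletal muscle genes, none of them called, differed in the other direction: 0 of 10 had the higher mean in Rag2-/- tumors, with a median difference of -2.27 (-2.71 without S51), list means of 7.85 against 10.12, and an unadjusted limma p under 0.05 for 9 (10 without S51). Their part in the list differences was not tested. The lowest p-values were those of Irf9 (0.61 ± 0.17, adjusted p = 0.301), Ifit3 (1.14 ± 0.33) and Usp18 (1.18 ± 0.37). For the 9 members the median difference was 0.27, and -0.08 without S51, and for the 7 immunity-related GTPases 0.13 and -0.27. Gm12250, at 0.55 ± 0.46, had the lowest p of that list, followed by Irgm1 at 0.35 ± 0.34 and Tgtp2 at -0.18 ± 0.40. Among 10 tested interferon gamma targets, with a median of 0.30, Cxcl10 had the lowest p, at 0.92 ± 0.47 (adjusted p = 0.320).

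The inflammasome genes through which GBPs act had a median difference of 0.61 over 8 genes (0.50 without S51). Of the 8, 7 had the higher mean in Rag2-/- tumors, where 56.2% of all genes did. Gsdmd, the pore protein of pyroptosis, was higher by 0.55 ± 0.23, Nlrp3 by 0.67 ± 0.29 and Il18 by 0.68 ± 0.30, each with an adjusted p of 0.301 (limma). In the 15 tumors of the study's figure these differences were smaller, at 0.30, 0.28 and 0.16. There Il1b was at 0.53 and Pycard at 0.04, while Casp4 (-0.76), Casp1 (-0.32) and Aim2 (-0.13) had the lower mean in Rag2-/- tumors. The Atg8 conjugation genes, which help to direct GBPs to vacuoles, had a median of -0.04 over 6 genes. Gabarapl2 had the lowest p, at -0.51 ± 0.22 (adjusted p = 0.301). Of the receptor pathway, Ifngr2 differed by -0.31 ± 0.11 (adjusted p = 0.301), Ifngr1 by 0.36 ± 0.20, Jak1 by -0.17 ± 0.12, Jak2 by -0.30 ± 0.18 and Irf1 by 0.38 ± 0.35.

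Across all 12817 other genes tested, the 10 most like the members over the 19 tumors (Pearson's r, centred within genotype, with the mean of the scaled members) included Iigp1 (r = 0.978), Gm12250 (0.964), Cxcl9 (0.961), Fgl2 (0.957), Il18bp (0.956), Tgtp2 (0.955), Igtp (0.953), Tapbpl (0.946) and Tgtp1 (0.944). Of the 10, 5 are immunity-related GTPases, the second GTPase family described above, and without S51 it was 3 of 10 (Iigp1, Igtp and Gm12250). Without S51 the leading genes were Iigp1 (r = 0.938), Il18bp (0.928), Ly6a (0.91), H2-T23 (0.905) and Fgl2 (0.902), and 6 of the first 10 were shared with the list from all 19 tumors. Irf1 ranked 21 with S51 and 106 without it.

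Members also differed in how much they varied within a genotype. The within-genotype SD of Gbp10 was 2.1 log2 units, above 98.0% of 1687 genes of like level, and 1.2 without S51 (83.2%). For Gbp6 it was 1.2 (94.3%) and 0.65 without S51 (80%). Gbp9 had the lowest percentile in both cases, with an SD of 0.51 (60.1%) and 0.46 without S51 (58.4%), and Gbp7 was next to it without S51, at 0.45 (58.7%). Without S51, all 9 members lay between the 58.4 and 83.2 percentiles of genes of like level.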

How the data were processed

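RNA of 19 primary p53/MCA sarcomas was sequenced as 150 bp paired-end reads. The authors aligned reads to mouse B38 with the Omicsoft Sequence Aligner, used Ensembl R86 gene models and deposited log2 values of FPKM after upper-quartile normalization. The submitters' processing notes also name Trimmomatic 0.36, STAR 5.5.4b, HTSeq and mm10. The floor of -3.32 is log2 of the 0.1 added, and 63.0% of values are at it. All columns matched a tumor. The values are not counts. Depth was estimated from steps between low values, where 74.3% to 88.4% of values under 10 fragments lay within 0.05 of a whole fragment, and limits low genes such as Gbp8 and Ifng.

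Genotypes were compared with limma 3.58.1 (trend, R 4.3.3) on genes with a mean log2 value above 0, with Benjamini-Hochberg adjustment, after testing on simulated data. Genes below it were compared by exact permutation, and relations by 100000 permutations or all of them within Rag2+/- tumors (Python 3.11.15). Members and lists were chosen with earlier results of these data known. Named genes were the members, the interferon gamma receptor pathway, other GBP genes, up to 3 genes of lowest p per list and the 10 most like the members. The genes called over all tested, the markers at the floor or highest in S51, Isg15, Ifit1, Ckm and Acta1 were named outside this rule. One gene that this rule names is not reported here.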

Additional observations from a re-analysis of the deposited data

Results flagged for a closer look

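Gbp8 was lowest in the Rag2+/- tumor S56, at -2.40 against 0.09 to 1.68 in the other 7 Rag2+/- tumors, and the gap to the nearest tumor was 0.612 of the range of the group, above Dixon's critical value of 0.526 for 8 tumors. Chance flags about 1 in 20 groups. The value rests on an estimated 4 fragments, and S56 was also the tumor with the highest skeletal muscle list (13.02) and the lowest NK cell list (-1.77). The part of these in the low value was not tested.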

How the results depend on the processing

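No member was called in any of the alternatives, with adjusted p from 0.113 to 1.0 over 268 values, of which 253 kept their direction and 15 reversed. Without tumor S51 the reversed differences were -0.05 for Gbp2, -0.08 for Gbp5 and -0.29 for Gbp6, without S51 and S41 -0.07, -0.12 and -0.31, and in the 15 tumors of the study's figure -0.23, -0.17 and -0.37. The skeletal muscle covariate turned Gbp4 (0.40), Gbp8 (0.19) and Gbp10 (1.03) and raised Gbp2 to 0.73, Gbp5 to 0.83, Gbp6 to 0.81 and Gbp7 to 0.91, and the Xist covariate turned Gbp4 (0.11). With the muscle covariate and without S51 Gbp4, Gbp8 and Gbp10 were at -0.42, -0.46 and -0.04. Over tumors left out one at a time, the range was -0.05 to 0.40 for Gbp2, -0.59 to -0.05 for Gbp4, -0.08 to 0.40 for Gbp5, -0.29 to 0.28 for Gbp6 (also -0.06 without S53), -0.58 to 0.04 for Gbp8 (0.04 without S48) and -1.38 to -0.43 for Gbp10. Over all genes, 4 were called, 0 with a mean above 2, 2 with the muscle covariate, 7 without S51 and S41, 15 in the 15 tumors, 34 without a filter and 3 to 7 with a tumor left out, 7 without S51 or S56. Neighbor pairs past the threshold were 6, or 7 with a pseudocount of 1. Of the 54 relations 13 passed, 8 in the 15 tumors, 27 after centring within genotype and 10 without S51. The cause of these changes was not tested. The alternatives without S51 in the order and relations, without S51 and S41, and with the muscle covariate and without S51 were chosen after seeing the data. So was the split of the tumors into 2 ranges of muscle RNA, which was set at the widest gap in these same values. No paired analysis was possible because no label ties a Rag2-/- mouse to a Rag2+/- mouse. Depth limits Gbp8, Gbp2b, Gbp11 and Ifng, at an estimated 0 to 4 fragments in their lowest tumor, and Gbp10, at 15.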
